A study of Arabidopsis thaliana with 8 samples.

Results

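The genes that encode the fermentation enzymes and the pyruvate dehydrogenase bypass were measured in dark-grown Arabidopsis thaliana seedlings. They are 10 of the 36799 genes in the count tables and were chosen by locus: 4 pyruvate decarboxylase genes (PDC1, AT4G33070; PDC2, AT5G54960; PDC3, AT5G01330; PDC4, AT5G01320), the alcohol dehydrogenase gene ADH1 (AT1G77120), the L-lactate dehydrogenase gene LDH (AT4G17260), the alanine aminotransferase gene AlaAT1 (AT1G17290), the aldehyde dehydrogenase genes ALDH2B4 (AT3G48000) and ALDH2B7 (AT1G23800), and the acetyl-CoA synthetase gene (AT5G36880, called ACS here). All 10 had counts high enough to be tested.

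Plants draw on fermentation when oxygen is short. Pyruvate decarboxylase turns pyruvate into acetaldehyde, which alcohol dehydrogenase reduces to ethanol, and lactate dehydrogenase reduces pyruvate to lactate; both reductions restore the NAD+ that glycolysis needs. Alanine aminotransferase makes alanine from pyruvate. In the bypass, acetaldehyde is oxidised to acetate by aldehyde dehydrogenase, and acetate is joined to coenzyme A by acetyl-CoA synthetase, so that acetyl-CoA is formed without the pyruvate dehydrogenase complex.

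The study, by its title, concerns that complex in the nucleus and acetylation of histones in the ethylene response. Poly(A) RNA of whole seedlings was sequenced in 8 libraries from 2 double mutant lines, 2 libraries for each of 4 groups. The seedlings spent 3 days in darkness on MS medium with sucrose before gas treatment. Line #17, e1-2-2 e2-2 (called e1e2), was kept in hydrocarbon-free air in 1 group and in 10 ppm ethylene in another, and so was line #67, e2-2 e3-2-2 (called e2e3). Both lines carry e2-2, each is represented by 1 numbered line, and libraries of wild type were not analysed here. The labels tie no allele to a locus and do not give the hours of ethylene. Nor do they tell whether the replicates were sown separately, so the p-values measure only how far these samples spread.

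Libraries held 11522823 to 18601837 counted read pairs, and replicates differed by more than sampling noise (mean chi-square per gene from 1.42 to 2.06). That extra spread was small, with a coefficient of variation of 2.75% common to all genes in the edgeR fit, and the p-values rest on it. Of the genes for subunits of the mitochondrial pyruvate dehydrogenase complex, E1-ALPHA (AT1G59900) stood at 19.2 to 23.1 CPM (counts scaled to the size of the library) in e1e2 and at 214 to 231 CPM in e2e3, while mtLPD2 (AT3G17240) stood at 131 to 150 CPM in e1e2 and at 27.4 to 40.4 CPM in e2e3. The 6 dark-seedling markers were all detected, and so were 6 root, 6 late-embryo and 6 light-exposed markers. Root markers summed to 9670 to 10007 CPM in e1e2 air, 6340 to 6392 CPM in e1e2 ethylene, 11478 to 11604 CPM in e2e3 air and 7210 to 7215 CPM in e2e3 ethylene. Late-embryo markers summed to 1585 to 1696, 964 to 1081, 1798 to 2059 and 1661 to 1746 CPM in the same order. One gene carries most of each sum, with group means of 5947 to 10938 CPM for PYK10 among the root markers and 882 to 1629 CPM for CRA1 among the late-embryo markers. The part of these shifts in the changes below was not tested, and in whole seedlings fewer cells of a type and less RNA per cell cannot be told apart.

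The 250 bases before the annotated start of a gene are shown for the 6 members whose ethylene results are described first or that hold a searched motif. They were read from the RefSeq TAIR10.1 genome, whose gene starts and ends are identical to the TAIR10 positions of the count tables for all 10 members. The windows are chr4:15954804-15955053 (minus strand) for PDC1, chr5:22312833-22313082 (minus) for PDC2, chr5:134921-135170 (minus) for PDC3, chr1:28975005-28975254 (plus) for ADH1, chr4:9673647-9673896 (plus) for LDH and chr1:5922082-5922331 (plus) for AlaAT1, each written 5′ to 3′ along the gene. Capitals mark AAACCA, the core collected from promoters of anaerobically expressed plant genes, CACGTG (the G-box) and GCCGCC (the GCC-box bound by ethylene response factors), searched on both strands, and no matches overlapped:
PDC1: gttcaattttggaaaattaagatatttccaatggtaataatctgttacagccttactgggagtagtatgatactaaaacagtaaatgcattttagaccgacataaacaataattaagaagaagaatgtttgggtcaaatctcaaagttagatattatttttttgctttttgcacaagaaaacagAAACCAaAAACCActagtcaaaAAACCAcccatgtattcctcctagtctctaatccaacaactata
PDC2: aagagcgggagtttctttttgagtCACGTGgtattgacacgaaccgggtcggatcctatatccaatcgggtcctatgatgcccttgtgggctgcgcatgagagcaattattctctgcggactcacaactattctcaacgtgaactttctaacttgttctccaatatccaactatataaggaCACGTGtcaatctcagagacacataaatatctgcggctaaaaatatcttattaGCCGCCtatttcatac
PDC3: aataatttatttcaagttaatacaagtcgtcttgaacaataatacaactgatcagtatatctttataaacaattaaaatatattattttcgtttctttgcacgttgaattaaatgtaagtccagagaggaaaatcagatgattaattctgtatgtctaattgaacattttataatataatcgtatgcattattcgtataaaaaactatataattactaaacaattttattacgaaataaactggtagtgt
ADH1: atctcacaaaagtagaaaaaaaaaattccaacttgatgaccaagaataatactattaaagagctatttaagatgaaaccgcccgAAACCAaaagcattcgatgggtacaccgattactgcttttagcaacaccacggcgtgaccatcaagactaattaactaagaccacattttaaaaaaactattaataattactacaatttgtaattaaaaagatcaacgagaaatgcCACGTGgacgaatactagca
LDH: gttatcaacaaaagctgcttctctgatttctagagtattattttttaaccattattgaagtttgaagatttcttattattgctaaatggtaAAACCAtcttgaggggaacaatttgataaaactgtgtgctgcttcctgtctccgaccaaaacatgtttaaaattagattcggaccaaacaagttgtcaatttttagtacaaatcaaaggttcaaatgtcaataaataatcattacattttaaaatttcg
AlaAT1: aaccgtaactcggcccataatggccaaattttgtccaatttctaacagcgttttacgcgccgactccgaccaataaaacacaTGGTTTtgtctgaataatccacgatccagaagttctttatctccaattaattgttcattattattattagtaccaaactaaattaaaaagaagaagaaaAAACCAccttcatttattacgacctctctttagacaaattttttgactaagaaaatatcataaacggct
AAACCA was found in 4 of the 10 members, against 27.3% of 20108 such windows of tested genes. PDC1 held it 3 times, 66, 59 and 44 bases before the start. AlaAT1 held it at 168 bases, on the reverse strand, and at 69 bases, and ADH1 and LDH held it once each, at 166 and 159 bases. CACGTG stood 226 and 69 bases before PDC2 and 20 bases before ADH1, where 7.61% of all windows hold it, and GCCGCC stood 16 bases before PDC2, where 2% do. The genes that follow these windows span chr1:28975255-28977417 (ADH1), chr4:9673897-9675540 (LDH) and chr1:5922332-5926400 (AlaAT1), and the bypass genes span chr3:17716864-17720169 (ALDH2B4), chr1:8412051-8414886 (ALDH2B7) and chr5:14534585-14540441 (ACS), all 3 on the minus strand. None of the 3 motifs was in the windows of PDC3, PDC4, ALDH2B4, ALDH2B7 or ACS.

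The 4 pyruvate decarboxylase genes are close copies, which bears on how far their reads can be kept apart. Their last 90 coding bases, stop codon included, are shown with every base that differs from PDC1 in capitals:
PDC1: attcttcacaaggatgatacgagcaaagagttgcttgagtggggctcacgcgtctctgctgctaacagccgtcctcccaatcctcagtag
PDC2: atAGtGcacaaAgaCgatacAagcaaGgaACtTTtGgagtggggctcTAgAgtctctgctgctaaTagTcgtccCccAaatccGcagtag
PDC3: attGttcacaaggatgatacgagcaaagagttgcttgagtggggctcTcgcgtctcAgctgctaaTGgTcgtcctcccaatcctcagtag
PDC4: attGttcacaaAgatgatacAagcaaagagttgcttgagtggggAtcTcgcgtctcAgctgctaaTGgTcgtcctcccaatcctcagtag
PDC3 differed from PDC1 at 6 of these bases, PDC4 at 9 and PDC2 at 20. PDC3 and PDC4 lie next to each other on chromosome 5 (132264-134920 and 129263-131687, minus strand). Over their aligned coding bases they were 93.2% identical, and their exons share an identical run of 194 bases. Identities here leave out gaps, which held 57 bases for PDC3 and PDC4. PDC1 (chromosome 4, 15952257-15954803, minus strand) was 86.7% identical to PDC3 and 87.1% to PDC4, and PDC2 (chromosome 5, 22310553-22312832, minus strand) was 76.1% to 77.1% identical to the other 3. Of the 2117 stretches of 50 bases in the PDC3 exons, 173 also occur in PDC4, and no other pair shares one. Reads that fit several places were not counted, so PDC3 and PDC4 may each be undercounted there.

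PDC1 and PDC3, both pyruvate decarboxylase genes, moved in opposite directions in ethylene, and did so in both lines. PDC1 was the member that separated the lines most. Levels in this and the following paragraphs are CPM over library sizes scaled by TMM (trimmed mean of M values), and changes are log2 fold changes ± standard error from edgeR quasi-likelihood tests. A gene is said to have risen or fallen where its p-value, Benjamini-Hochberg adjusted over 20193 genes, was under 0.05.

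PDC1 stood at 11.8 and 12.9 CPM in e1e2 air, 24.4 and 24.0 CPM in e1e2 ethylene, 47.3 and 49.4 CPM in e2e3 air, and 57.6 and 60.1 CPM in e2e3 ethylene. No groups overlapped, and the e2e3 air libraries were above the e1e2 ethylene libraries. With ethylene, PDC1 rose 1.95-fold in e1e2 (0.97 ± 0.10, edgeR adjusted p = 3.65e-16) and 1.22-fold in e2e3 (0.28 ± 0.07, edgeR adjusted p = 0.000142). The response in e2e3 was lower than that in e1e2 by 0.69 on the log2 scale, as fitted directly (-0.69 ± 0.13, edgeR adjusted p = 5.15e-05). In CPM the rise was of similar size, with means from 12.4 to 24.2 in e1e2 and from 48.3 to 58.8 in e2e3. The response difference is thus one of ratios, beside a higher air level in e2e3, and a difference in CPM was not tested. PDC1 was higher in e2e3 than in e1e2, 3.90-fold in air (1.96 ± 0.09, edgeR adjusted p = 2.91e-52) and 2.43-fold in ethylene (1.28 ± 0.08, edgeR adjusted p = 2.01e-38). In air this placed it 17th from the highest of 20193 fold changes between the lines. The 4 air libraries enter both the response difference and the comparison of the lines in air, so neither result stands apart from the other. DESeq2 gave the response difference no adjusted p under its independent filtering and an adjusted p of 0.0155 without it.

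PDC3 stood at 48.8 and 49.9 CPM in e1e2 air, 16.6 and 15.3 CPM in e1e2 ethylene, 61.0 and 58.4 CPM in e2e3 air, and 20.4 and 22.6 CPM in e2e3 ethylene. All 4 ethylene libraries were below all 4 air libraries. It fell 3.09-fold in e1e2 (-1.63 ± 0.09, edgeR adjusted p = 2.7e-46) and 2.77-fold in e2e3 (-1.47 ± 0.08, edgeR adjusted p = 3.29e-47). Only 2.26% of the genes tested changed by as much, in either direction, in e1e2, and 3.1% in e2e3. The responses of the lines differed by 0.16 ± 0.12, with a 95% interval from -0.07 to 0.39 (edgeR adjusted p = 0.598).

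Between the lines PDC3 was also higher in e2e3, by 0.27 ± 0.07 in air (edgeR adjusted p = 0.00144) and 0.43 ± 0.10 in ethylene (edgeR adjusted p = 0.000697). In air the call was lost with DESeq2 (adjusted p = 0.0597) and without e2e3 air replicate 1 (log2 difference 0.23, edgeR adjusted p = 0.0558). In ethylene it was lost without e1e2 ethylene replicate 2 (0.37, edgeR adjusted p = 0.0615) or e2e3 ethylene replicate 2 (0.35, edgeR adjusted p = 0.0864).

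PDC2 stood at 19.2 and 16.9 CPM in e1e2 air, 24.2 and 23.1 CPM in e1e2 ethylene, 17.8 and 18.6 CPM in e2e3 air, and 22.2 and 23.7 CPM in e2e3 ethylene. The ethylene libraries of both lines overlapped and lay above the air libraries, which overlapped too. PDC2 rose by 0.40 ± 0.10 in e1e2 (edgeR adjusted p = 0.000662) and by 0.33 ± 0.10 in e2e3 (edgeR adjusted p = 0.00267). Neither call passed in every setting: without e1e2 air replicate 2 the first stood at 0.30 (edgeR adjusted p = 0.0557), and without e2e3 ethylene replicate 2 the second stood at 0.29 (edgeR adjusted p = 0.0537). DESeq2 gave an adjusted p of 0.0256 for e1e2 and 0.0502 for e2e3. In the authors' deposited DESeq2 results PDC2 passed in neither line (adjusted p = 0.0762 in e1e2 and 0.0948 in e2e3).

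PDC4 was barely detected. Its counts were 11 and 5 read pairs in e1e2 air, 11 and 11 in e1e2 ethylene, 9 and 15 in e2e3 air, and 9 and 9 in e2e3 ethylene. The air groups overlapped, and in CPM the e2e3 ethylene libraries lay below those of e1e2 ethylene and e2e3 air. The summed counts gave an ethylene to air ratio of 1.12 in e1e2 (exact 95% interval from 0.563 to 2.29) and 0.828 in e2e3 (0.424 to 1.59), intervals that cover counting error only. The fold changes of PDC3 in the same lines, at 0.323 and 0.361 times the air level, lie outside these intervals, and changes within them were not detectable at this depth.

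**Figure D1:**
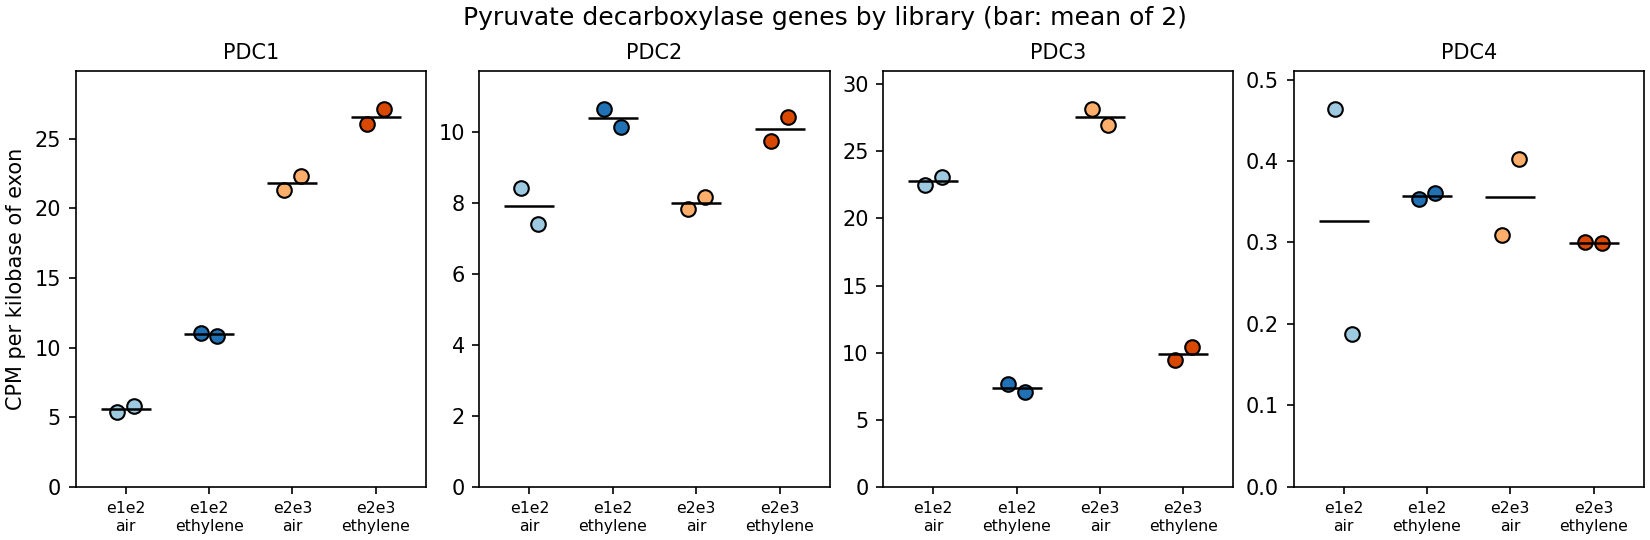
Levels of the 4 pyruvate decarboxylase genes in CPM per kilobase of exon (y axis, a separate linear scale from 0 in each panel), with 1 point per library, 2 libraries per group of line and treatment (x axis), and a bar at their mean. PDC1 is higher in ethylene than in air within each line and higher in e2e3 than in e1e2, while all 4 ethylene libraries of PDC3 lie below all 4 air libraries.

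Set per kilobase of exon, so that genes can be compared, the makeup of the pyruvate decarboxylase transcripts differed between the groups. PDC3 held 61.3% and 63.2% of the summed level in e1e2 air and 48.9% and 46.6% in e2e3 air, and in ethylene 25.8% and 24.8% in e1e2 and 20.7% and 21.6% in e2e3. PDC1 held 14.6% and 16.0% in e1e2 air, 37.2% and 38.3% in e1e2 ethylene, 37.1% and 38.6% in e2e3 air, and 57.2% and 56.2% in e2e3 ethylene. PDC3 was thus the most abundant of the 4 in every air library and PDC1 in every ethylene library, in e1e2 closely followed by PDC2 at 35.8% and 35.7%.

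PDC1 stood at 0.238 and 0.253 times the per-kilobase level of PDC3 in e1e2 air and at 2.77 and 2.60 times in e2e3 ethylene. The other groups lay between, at 0.759 and 0.828 times in e2e3 air and at 1.44 and 1.54 times in e1e2 ethylene. The summed level of the 4 genes was 36.7 and 36.5 CPM per kilobase in e1e2 air, 29.7 and 28.4 in e1e2 ethylene, 57.6 and 57.9 in e2e3 air, and 45.5 and 48.3 in e2e3 ethylene. It was lower in ethylene within each line and higher in e2e3 than in e1e2, with no overlap between groups; the sum was not tested.

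**Figure D2:**
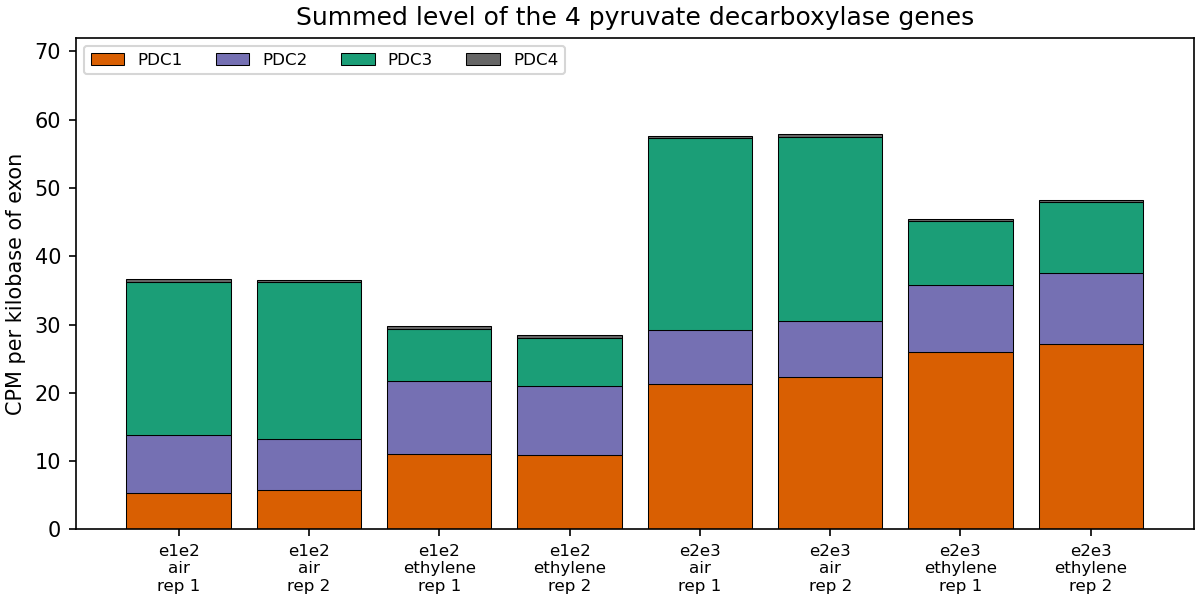
Summed level of PDC1, PDC2, PDC3 and PDC4 in CPM per kilobase of exon (y axis, from 0) in each of the 8 libraries (x axis), stacked by gene. The share of PDC3 shrinks and that of PDC1 grows with ethylene in both lines, and the e2e3 bars, at 45.5 to 57.9, are all taller than the e1e2 bars, at 28.4 to 36.7.

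ADH1, which reduces acetaldehyde to ethanol, rose in both lines to levels that overlapped. It stood at 11.6 and 12.8 CPM in e1e2 air and 14.4 and 15.3 CPM in e2e3 air. In ethylene it stood at 24.4 and 25.5 CPM in e1e2 and at 24.4 and 25.5 CPM in e2e3. Every ethylene library was above every air library, and the ethylene libraries of the lines overlapped. The rise was 2.04-fold in e1e2 (1.03 ± 0.11, edgeR adjusted p = 3.25e-16) and 1.67-fold in e2e3 (0.74 ± 0.10, edgeR adjusted p = 3.48e-11). The responses differed by -0.28 ± 0.15, with a 95% interval from -0.58 to 0.02 (edgeR adjusted p = 0.396). The lines in air differed by 0.28 ± 0.12 (edgeR adjusted p = 0.102), and in ethylene the 95% interval of their difference ran from -0.18 to 0.18.

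Wild-type values for ADH1 came only from the authors' deposited table of genes called in wild type, which holds 1 of the 10 members. From its values that table lists no gene with an absolute log2 fold change under 1 in wild type, so absence from it does not show that a gene was unchanged. In the authors' deposited table ADH1 has a log2 fold change of -1.03 in wild type, against 1.03 in e1e2 and 0.75 in e2e3. That table lists 735 genes as lower with ethylene in wild type, at this size of change, and by the edgeR tests 556 of them fell and 5 rose in both lines. ADH1 is among the 5, with the zinc transporter gene ZIP3 (AT2G32270), AT2G38380, ELIP2 (AT4G14690) and AT5G10580, which were named after their values were seen. The wild-type libraries behind that table are not among the samples measured here. The labels do not tell whether they were grown, treated and sequenced together with the mutants. The opposite signs may thus not compare like with like, and the difference between the mutants and wild type was not tested. Exons of AT1G77122 cover 3.82% of the ADH1 exonic bases, and the counting did not use strand.

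LDH, which reduces pyruvate to lactate, stood at 17.4 and 19.3 CPM in e1e2 air, 26.9 and 22.4 CPM in e1e2 ethylene, 24.6 and 21.6 CPM in e2e3 air, and 25.2 and 24.6 CPM in e2e3 ethylene. The e1e2 air libraries were below all others, and the other 3 groups overlapped. LDH rose in e1e2 (0.42 ± 0.10, edgeR adjusted p = 0.000216) and was not called in e2e3 (0.11 ± 0.09, edgeR adjusted p = 0.337), while the responses differed by -0.31 ± 0.14, which did not pass (edgeR adjusted p = 0.258). The authors' deposited DESeq2 results gave LDH in e1e2 an adjusted p of 0.0565. Without e1e2 ethylene replicate 1 the rise in e1e2 stood at 0.28 and was not called (edgeR adjusted p = 0.0721). In air LDH was higher in e2e3 by 0.32 ± 0.10 (edgeR adjusted p = 0.0163). That call was lost with DESeq2 (adjusted p = 0.144), with library size alone (0.28, edgeR adjusted p = 0.0546), without e1e2 air replicate 1 (0.24, edgeR adjusted p = 0.242) and without e2e3 air replicate 1 (0.22, edgeR adjusted p = 0.285).

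AlaAT1, which makes alanine from pyruvate and glutamate, stood at 121 and 113 CPM in e1e2 air, 155 and 152 CPM in e1e2 ethylene, 123 and 123 CPM in e2e3 air, and 155 and 156 CPM in e2e3 ethylene. The ethylene libraries of the lines overlapped and were above every air library. AlaAT1 rose 1.32-fold in e1e2 (0.40 ± 0.05, edgeR adjusted p = 1.92e-14) and 1.26-fold in e2e3 (0.34 ± 0.04, edgeR adjusted p = 1.03e-11). The lines differed by 0.08 ± 0.05 in air (95% interval from -0.02 to 0.17) and by 0.01 ± 0.04 in ethylene (-0.07 to 0.10), neither of which was called.

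**Figure D3:**
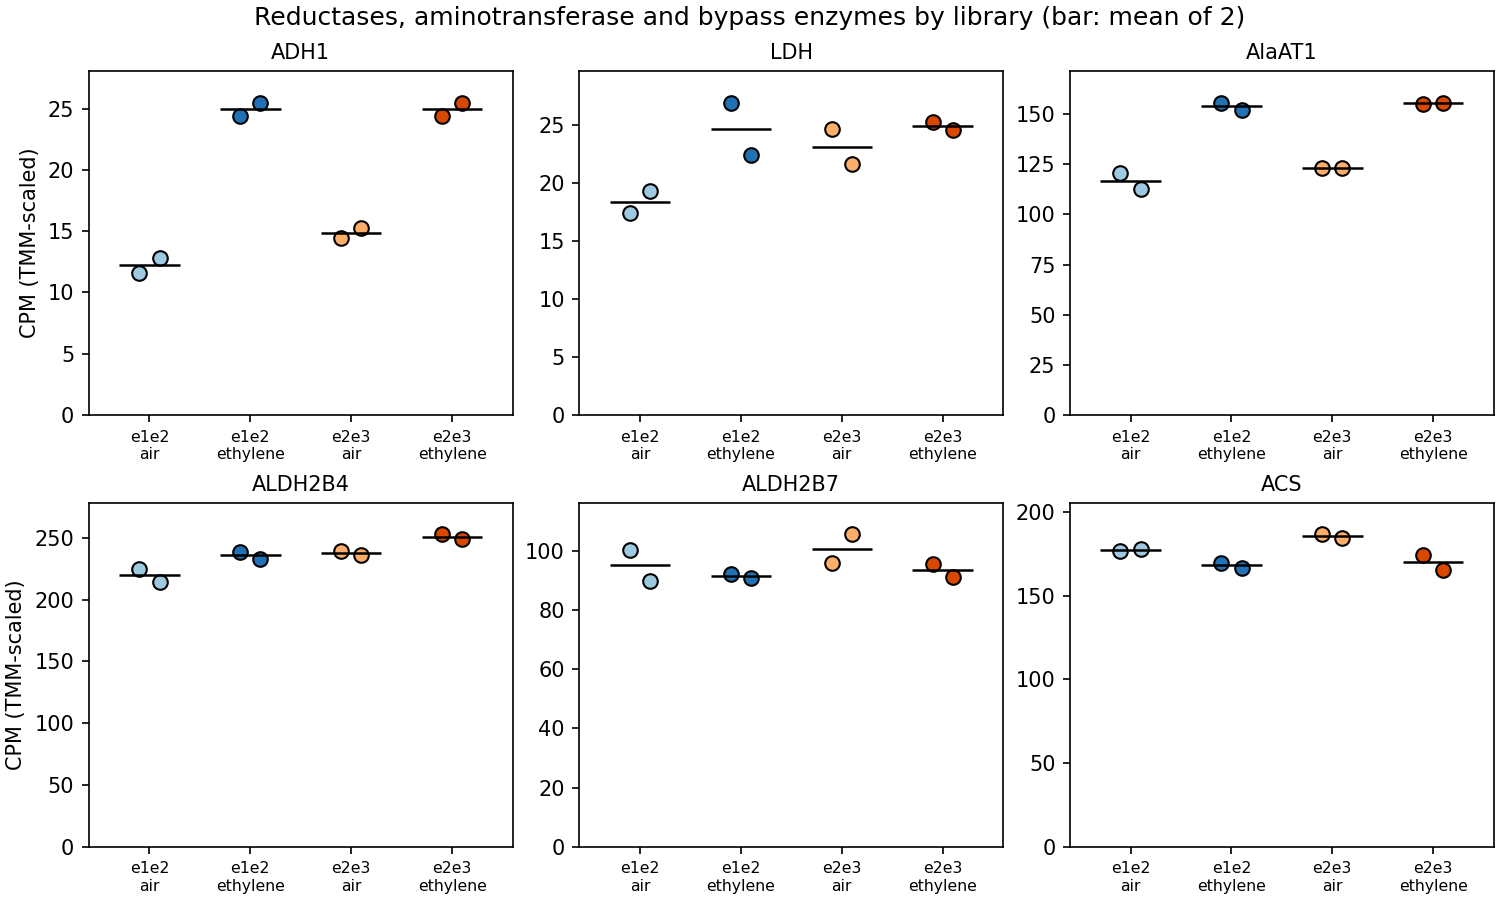
Levels of ADH1, LDH, AlaAT1, ALDH2B4, ALDH2B7 and ACS in CPM (y axis, a separate linear scale from 0 in each panel), with 1 point per library, 2 libraries per group (x axis), and a bar at their mean. ADH1 and AlaAT1 reach overlapping levels in the ethylene libraries of both lines, and the bypass genes in the lower row differ little between groups.

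The bypass enzyme genes moved little. ALDH2B4, a mitochondrial aldehyde dehydrogenase gene, stood at 225 and 214 CPM in e1e2 air, 238 and 233 CPM in e1e2 ethylene, 240 and 236 CPM in e2e3 air, and 253 and 249 CPM in e2e3 ethylene. Its e2e3 ethylene libraries were the highest and its e1e2 air libraries the lowest, and the other groups overlapped. It rose by 0.10 ± 0.04 in e1e2 (edgeR adjusted p = 0.028) and was higher in e2e3 air than in e1e2 air by 0.12 ± 0.04 (edgeR adjusted p = 0.0291). With ethylene in e2e3 it stood at 0.08 ± 0.04 and was not called (edgeR adjusted p = 0.0912), but was called at 0.16 with library size alone (edgeR adjusted p = 8.6e-05) and at 0.10 without e1e2 air replicate 1 (edgeR adjusted p = 0.0173). Neither of the calls, in e1e2 and between the lines, held with DESeq2 (adjusted p = 0.0993 and 0.0936). The first was lost without e1e2 air replicate 2 (0.07), e1e2 ethylene replicate 1 (0.09) or e1e2 ethylene replicate 2 (0.12). The second was lost without e1e2 air replicate 2 (0.08), either e1e2 ethylene replicate (0.12 each), e2e3 air replicate 1 (0.09) or e2e3 air replicate 2 (0.11). It was also lost with library size alone (0.069, edgeR adjusted p = 0.24), with no filter on low counts (edgeR adjusted p = 0.0573) and with only the groups compared in the fit (edgeR adjusted p = 0.127).

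ALDH2B7, the other mitochondrial aldehyde dehydrogenase gene, stood between 89.7 and 106 CPM in the 8 libraries, and no comparison called it. Its libraries stood at 100.4 and 89.7 CPM in e1e2 air, 92.0 and 90.9 CPM in e1e2 ethylene, 95.8 and 106 CPM in e2e3 air, and 95.6 and 91.2 CPM in e2e3 ethylene. The e1e2 air group overlapped all the others, while e2e3 air lay above both ethylene groups. Its changes with ethylene were -0.05 ± 0.05 in e1e2 (95% interval from -0.16 to 0.05) and -0.11 ± 0.05 in e2e3 (-0.21 to -0.01, edgeR adjusted p = 0.0624). Without e1e2 air replicate 2 or e2e3 air replicate 1 the second passed (-0.11, edgeR adjusted p = 0.0461, and -0.16, edgeR adjusted p = 0.0267). The coding sequences of ALDH2B4 and ALDH2B7 were 73.7% identical with gaps left out, and their exons share no stretch of 50 bases. Exons of AT1G23790 cover 1.48% of the ALDH2B7 exonic bases.

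ACS, which joins acetate to coenzyme A, stood at 176 and 178 CPM in e1e2 air, 170 and 167 CPM in e1e2 ethylene, 187 and 184 CPM in e2e3 air, and 174 and 165 CPM in e2e3 ethylene. The e2e3 air libraries were the highest, the e1e2 air libraries came next, and the ethylene libraries of the lines overlapped below them. ACS fell by 0.13 on the log2 scale in e2e3 (-0.13 ± 0.04, edgeR adjusted p = 0.00698) and stood at -0.07 ± 0.04 in e1e2 (edgeR adjusted p = 0.164). The call in e2e3 was lost with library size alone, without TMM scaling (-0.045, edgeR adjusted p = 0.37), with DESeq2 (adjusted p = 0.0686), and without either e2e3 air replicate or e2e3 ethylene replicate 2 (-0.10, -0.12 and -0.09).

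Across the 10 members, 6 rose and 1 fell with ethylene in e1e2, where 18.3% of all tested genes rose, 20.9% fell and 39.2% were called either way. The 6 were PDC1, PDC2, ADH1, LDH, AlaAT1 and ALDH2B4, and the 1 that fell was PDC3. In e2e3, 4 rose (PDC1, PDC2, ADH1 and AlaAT1) and 2 fell (PDC3 and ACS), where 20.3% of all tested genes rose, 23.6% fell and 44% were called either way. DESeq2 called 6 members in e1e2 (5 higher and 1 lower) and 4 in e2e3 (3 higher and 1 lower). In the authors' deposited DESeq2 results, PDC1, ADH1 and AlaAT1 were higher and PDC3 lower in each line. No other member had an adjusted p under 0.05 there, so the counts depend on the method. Of all genes it called 5137 and 5924, fewer than the 7911 and 8876 of edgeR, to which the shares above belong. The median log2 fold change of the members was 0.28 in e1e2 and 0.10 in e2e3, beside 0.01 for all tested genes in each line. The 2 ethylene comparisons set no library in common against each other, but both come from the same fit of all 8 libraries, with shared scaling and spread.

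The response difference between the lines was called for 1 of the 10 members, PDC1, whose log2 response was lower in e2e3. Of all tested genes 1.27% had a lower and 1.54% a higher response in e2e3, and 2.8% were called either way. Between the lines in air, 4 members were higher in e2e3 (PDC1, PDC3, LDH and ALDH2B4) and none was lower, where 9% of all genes were higher, 5.83% lower and 14.8% called either way. DESeq2 called 1 of the members in air, PDC1, and 1422 of all genes, where edgeR called 2995. In ethylene 2 members were higher in e2e3 (PDC1 and PDC3), against 4.24% of all genes called higher, 2.32% lower and 6.56% either way.

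**Figure D4:**
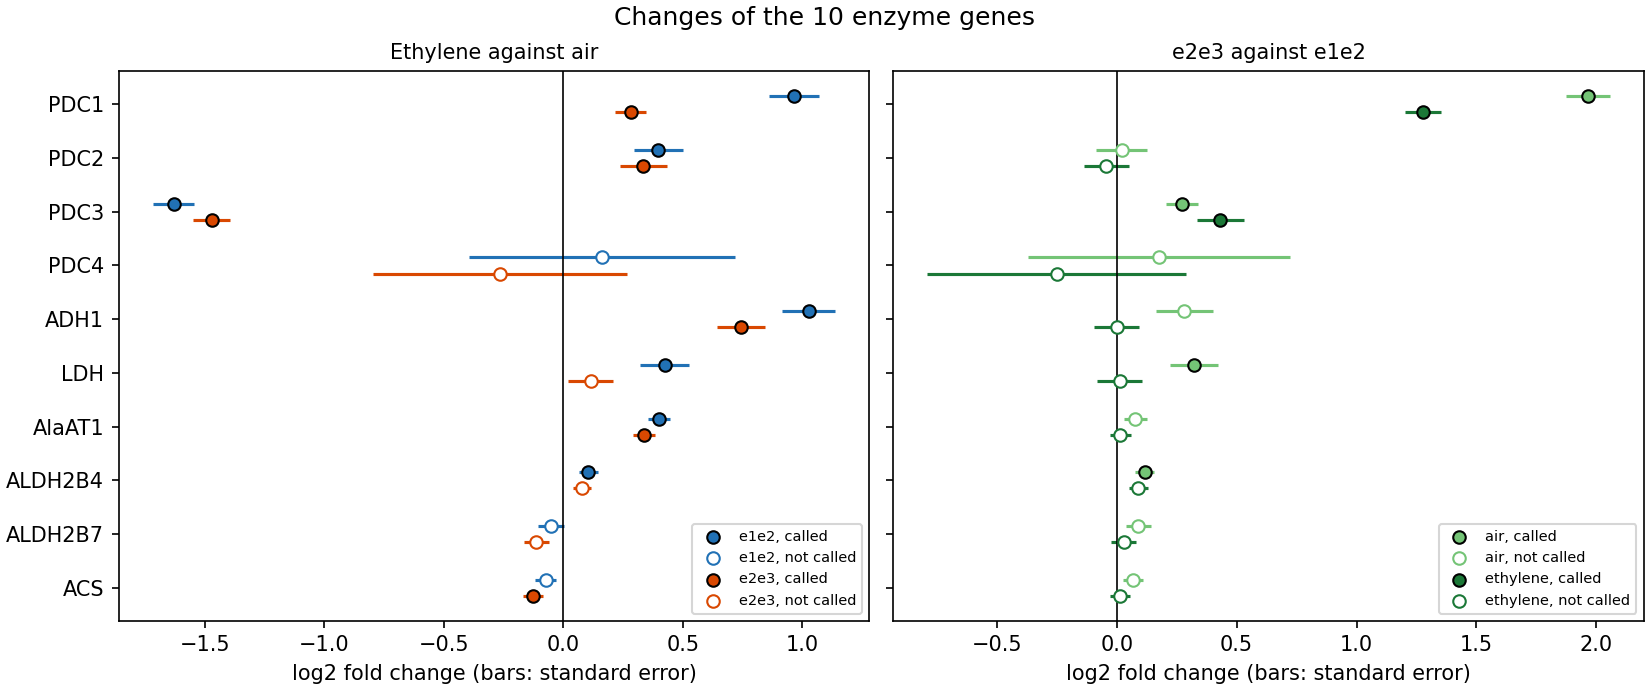
Log2 fold changes of the 10 genes (y axis) with ethylene against air in each line (left x axis) and for the lines, e2e3 relative to e1e2, in each gas (right x axis). Points are edgeR estimates, horizontal lines are ± 1 standard error, and filled points passed an adjusted p of 0.05: PDC3 lies far below 0 in both lines on the left, and PDC1 far above 0 in both gases on the right.

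Per kilobase of exon the bypass genes and AlaAT1 were above the fermentation genes in every library. ALDH2B4 stood at 99.2 to 117 CPM per kilobase, AlaAT1 at 47.3 to 65.5, ALDH2B7 at 45.6 to 53.7 and ACS at 45.4 to 51.2. Below them, PDC3 stood at 7.04 to 28.2, PDC1 at 5.35 to 27.1, LDH at 12.0 to 18.5, ADH1 at 7.26 to 16.0, PDC2 at 7.39 to 10.6 and PDC4 at 0.188 to 0.464. Among the genes outside the members, those whose profile over the 8 libraries was closest to that of PDC1 were AT3G54520, AT2G19970 and AT5G09570, at Euclidean distances of 0.6, 0.772 and 0.863 between centred log2 CPM. Their changes were not equal to those of PDC1. With ethylene in e1e2, with ethylene in e2e3 and between the lines in air, AT3G54520 changed by 1.06, 0.41 and 2.39. AT2G19970 changed by 0.65, 0.63 and 1.39, and AT5G09570 by 2.79, -0.04 and 4.69, beside 0.97, 0.28 and 1.96 for PDC1. For ADH1 the closest genes were AT5G51670, AT5G17700 and the dehydrin gene LTI30 (AT3G50970), at distances of 0.166, 0.183 and 0.206. By this distance no gene outside the members lay as close to PDC1 as these 3 lay to ADH1. The distance grows with the size of a gene's changes, which were larger across the groups for PDC1 than for ADH1. In the order named, Pearson correlations over the 8 libraries were 0.9892, 0.9677 and 0.9393 with PDC1. With ADH1 they were 0.993, 0.9895 and 0.9912.

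Enzymes that feed or drain the same pools were mixed. The lists here and below are read beside all tested genes, of which 18.3% rose and 20.9% fell in e1e2. In e2e3 20.3% rose and 23.6% fell, and in air 9% were higher and 5.83% lower in e2e3. Of 27 tested glycolysis genes, 10 rose and 4 fell in e1e2, while in e2e3 8 rose and 5 fell. In e2e3 the cytosolic aldolase gene FBA6 rose by 0.42 ± 0.04, and in e1e2 the aldolase gene FBA5 fell (-1.06 ± 0.32), though not with DESeq2 (adjusted p = 0.0641). Median changes of the list were 0.10 in e1e2 and -0.02 in e2e3. In air 6 of the 27 were higher in e2e3 and none was lower, with the glyceraldehyde-3-phosphate dehydrogenase gene GAPC1 at 0.33 ± 0.03. Of the 6 sucrose synthase genes, which release hexoses from sucrose, 3 rose and none fell in e1e2, while in e2e3 1 rose and 1 fell. DESeq2 called 1 of the 6 in e1e2 and 2 in e2e3. SUS6 rose in both lines, by 0.48 ± 0.10 and 0.46 ± 0.10. SUS1 rose in e1e2 (0.36 ± 0.13, DESeq2 adjusted p = 0.132), and SUS3 rose in e1e2 (0.13 ± 0.05, DESeq2 adjusted p = 0.199) and fell in e2e3 (-0.18 ± 0.05).

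Of 14 other aldehyde dehydrogenase genes, 4 rose and 5 fell in e1e2, while in e2e3 6 rose and 6 fell. The largest called change of the list was in P5CS1, an enzyme of proline synthesis, which fell in e1e2 (-1.25 ± 0.04) and in e2e3 (-1.44 ± 0.04). Of 11 tested genes for other alanine, glyoxylate and GABA (γ-aminobutyrate) enzymes, 4 rose and 4 fell in e1e2, while in e2e3 5 rose and 3 fell. The aminotransferase gene PYD4 rose by 1.14 ± 0.06 in e1e2 and 0.70 ± 0.06 in e2e3, a response lower in e2e3 by the direct test (-0.45 ± 0.08, edgeR adjusted p = 0.000103). GAD2, a glutamate decarboxylase gene, fell in both lines (-0.50 ± 0.04 in each).

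Of 10 genes for pyruvate carriers and other enzymes of pyruvate and acetate, 1 rose and 1 fell in e1e2, while in e2e3 2 rose and 3 fell. PPDK, pyruvate orthophosphate dikinase, rose by 0.47 ± 0.05 and 0.51 ± 0.05. Of the 8 mitochondrial pyruvate dehydrogenase genes, 1 rose with ethylene in e1e2, while in e2e3 1 rose and 3 fell. Between the lines in air 4 were higher and 1 was lower in e2e3, led by E1-ALPHA (3.35 ± 0.06) and mtLPD2 (-2.28 ± 0.06). Of 10 tested regulators and core genes of the low-oxygen response, 8 rose and none fell in e1e2, where 18.3% of all tested genes rose and 20.9% fell. In e2e3 7 rose and 1 fell, where 20.3% of all tested genes rose and 23.6% fell. HB1, a haemoglobin gene, rose by 2.15 ± 0.15 and 1.88 ± 0.13. DESeq2 called 6 of the 10 in each line. In e1e2 it did not call HRE1 (DESeq2 adjusted p = 0.114) or PCO2 (DESeq2 adjusted p = 0.0513). In air 1 of the 10, RAP2.12, was higher in e2e3 (0.17 ± 0.04).

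Of the root markers, 2 rose and 3 fell with ethylene in e1e2, while in e2e3 2 rose and 4 fell. PYK10 fell in both (-0.65 ± 0.03 and -0.70 ± 0.03), whereas the root hair genes EXPA7 (0.54 ± 0.09 and 0.43 ± 0.08) and PRP1 (1.26 ± 0.07 in each) rose, so the sum does not follow every marker. GL2 (-1.46 ± 0.13) and CASP5 (-1.04 ± 0.05) also fell in e1e2. In e2e3 the mean level of GL2 was 22.5 CPM in air and 8.33 CPM in ethylene, and that of CASP5 was 226 and 108 CPM. In air 5 of the 6 were higher in e2e3 and none was lower. Of the late-embryo markers, 5 fell in e1e2 and 4 in e2e3, and none rose. CRA1, which dominates their sum, fell in e1e2 (-0.64 ± 0.10) and was not called in e2e3 (-0.07 ± 0.10). PYK10, CASP5, EXPA7 and CRA1 were named after their values were seen. Of the dark-seedling markers 2 rose in each line, while 3 fell in e1e2 and 4 in e2e3. Of the light-exposed markers, 1 rose and 2 fell in e1e2, while in e2e3 3 rose and 1 fell. The part of these shifts in the changes of the 10 members was not tested.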

How the data were processed

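Poly(A) RNA of 8 libraries was measured as gene counts. The authors deposited raw counts of read pairs per gene from featureCounts 2.0.1, per the file headers, on Araport11 genes without strand, multi-mapping or multi-overlap options. STAR, Trim Galore, FastQC, DESeq2, Subread 2.0.1 and the TAIR10 build are listed in the submitters' processing notes without roles; aligner settings were not given in the sources. The authors' deposited DESeq2 tables give a mean signal (not used here), log2 fold changes and adjusted p-values.

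Counts were tested with edgeR 4.0.16 (R 4.3.3): TMM, filterByExpr, and robust quasi-likelihood F-tests with 4 group means, on all 8 libraries. The spread was shared across genes (4 residual degrees of freedom, median prior 218). Benjamini-Hochberg adjustment ran over 20193 genes. Standard errors are log2 fold changes divided by the square root of F; the 95% intervals use them and are not adjusted. DESeq2 1.42.0 was an alternative, and the code was tested on simulated data. The members and lists were chosen with earlier results of these data known. Named genes were all members, at most the 2 called genes with the largest change per list and comparison, and the 3 closest profiles to PDC1 and to ADH1 (log2 of CPM + 0.5). Same-numbered replicates did not deviate together and were not paired. Upstream windows came from the RefSeq genome: 99.5% of 36632 loci had identical spans there.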

Additional observations from a re-analysis of the deposited data

Results flagged for a closer look

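The ethylene response of PDC1, as a fold change, differed between the lines, while its rise in CPM was of similar size in both. The interaction term gave -0.69 ± 0.13 (e2e3 minus e1e2, log2 scale, edgeR adjusted p = 5.15e-05), with 11.8 and 12.9 CPM in air and 24.4 and 24.0 CPM in ethylene in e1e2, against 47.3 and 49.4 CPM and 57.6 and 60.1 CPM in e2e3. It lay between -0.75 and -0.60 when each library was left out in turn, and was called each time. Its cause was not tested.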

How the results depend on the processing

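PDC1, PDC3, ADH1 and AlaAT1 kept their ethylene calls in both lines, and PDC1 its calls between lines and of the response difference, under every alternative that gave a value (RLE size factors, library size alone, no filter, DESeq2, only the groups compared, a replicate block, each library left out). The replicate block changed no call of a member; the correlations of same-numbered deviations ran from -0.029 to -0.00067, and all-gene counts were 7734, 8715, 469, 2784 and 1155 with the block, against 7911, 8876, 566, 2995 and 1325. These 5 counts, and those below, are for ethylene in e1e2, ethylene in e2e3, the response difference, and the lines in air and in ethylene. DESeq2 gave 5137, 5924, 220, 1422 and 558. Without its independent filtering, an alternative chosen after seeing the data, it gave 4904, 5659, 107, 1243 and 491. Leaving out each library gave 6327 to 7879, 7291 to 9141, 240 to 545, 1952 to 2936 and 638 to 1586. Library size alone shifted the median of all genes by 0.07, 0.08, 0.02, -0.05 and -0.03, and split the calls into 5220 higher and 3492 lower (3694 and 4217 with TMM), 5874 and 3773 (4109 and 4767), 398 and 220 (310 and 256), 1185 and 1756 (1818 and 1177) and 606 and 798 (857 and 468).

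Members called higher in air fell from 4 to 2 with library size alone and to 1 with DESeq2, with or without filtering, and ran from 1 to 4 with a library left out (1 without e2e3 air replicate 1). Members called lower in e2e3 went from 2 to 1 with library size alone and with both DESeq2 settings, and ran from 1 to 3 (1 without e2e3 air replicate 2 or e2e3 ethylene replicate 2). Members called higher in ethylene ran from 1 to 2, with 1 without e1e2 or e2e3 ethylene replicate 2. Group order stayed for 4 of the 10 members with library size alone.

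Signs turned only where nothing was called. ADH1 between lines in ethylene was 0.0066 with RLE, 0.0053 without the filter and 0.0074 with DESeq2 unfiltered. With library size alone ALDH2B7 in e1e2 was 0.015, PDC2 in air -0.027, and in ethylene between lines LDH -0.020, AlaAT1 -0.018, ALDH2B7 -0.0019 and ACS -0.017. With each library left out in turn, the ranges that crossed 0 were, for the lines in air, ALDH2B7 -0.0013 to 0.16, PDC2 -0.072 to 0.097, PDC4 -0.36 to 0.91; for the lines in ethylene, ACS -0.021 to 0.052, ADH1 -0.032 to 0.034, ALDH2B7 -0.0017 to 0.064, LDH -0.11 to 0.16, PDC2 -0.091 to 0.0066; for ethylene in e1e2, ALDH2B7 -0.13 to 0.025, PDC4 -0.37 to 0.91; for the response difference, ALDH2B4 -0.039 to 0.0085, ALDH2B7 -0.12 to 0.037, PDC2 -0.13 to 0.029, PDC4 -1.15 to 0.11. The cause of these shifts was not tested. Depth limits PDC4.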

Other observations

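Genes beside PDC1 and PDC3 were read after the values were seen, as the 3 tested genes on each side. Beside PDC1, between the lines in air, AT4G33040 was called (0.41, edgeR adjusted p = 0.0404) and the other 5 were not, whereas with ethylene the adjacent AT4G33080 fell in both lines (-0.54 in e1e2 and -0.74 in e2e3) and APM1 (AT4G33090) rose in both (0.22, edgeR adjusted p = 2.55e-07, and 0.16, edgeR adjusted p = 0.00023). AT4G33060 stood at 0.14 in e1e2 (edgeR adjusted p = 0.217) and rose by 0.27 in e2e3 (edgeR adjusted p = 0.00638). AT4G33100 stood at -0.045 in e1e2 (edgeR adjusted p = 0.895) and fell in e2e3 (-0.605, edgeR adjusted p = 0.0204). Beside PDC3, AT5G01335 fell in both lines (-1.48, edgeR adjusted p = 7.22e-06, and -0.73, edgeR adjusted p = 0.0215), and AT5G01300 fell too (-0.92 and -0.70). PDC4, the neighbour on the other side of PDC3, was not called, and neither were mSFC1 (AT5G01340), AT5G01350 and APTX (AT5G01310).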
